A study of Mus musculus with 6 samples.

Results

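Nuclear genes for the subunits of the 5 oxidative phosphorylation complexes were followed in RNA of mouse skin. They were chosen by a rule on gene symbols, set with earlier results of these data known. It took names beginning with Nduf followed by a subunit letter and number, Sdha to Sdhd, Uqcr, Cox4 to Cox8 and Atp5. Pseudogenes, assembly factors, Cox7a1 and Cox8b were left out. The rule took 84 of the 27179 genes in the count table. Of these, 37 encode complex I (NADH dehydrogenase), 4 complex II (succinate dehydrogenase), 8 complex III (cytochrome c reductase), 18 complex IV (cytochrome c oxidase, here with Ndufa4 and its relative Ndufa4l2) and 17 complex V (ATP synthase). In 8 of the 84, the product is an isoform or copy that is largely restricted to certain tissues or states: Cox6a2, Cox4i2, Cox6b2, Cox7b2, Cox8c, Ndufa4l2, Ndufb4b and Ndufb4c.

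The mice were BALB/c females, 6 to 8 weeks old. Control mice gave 1 library. Mice given bleomycin, a DNA-damaging agent used to induce a skin fibrosis that models scleroderma, gave 1 library. Bleomycin with EHP-101, a test compound known here by its code name, gave 1 library, and bleomycin with ajulemic acid, a synthetic cannabinoid, gave 3 libraries. Doses, times, the route and site of injection and what the control mice received are not stated in any source used here, and nothing there says whether the 3 ajulemic acid libraries are from separate mice. P-values therefore rest on the spread between those 3 libraries alone, and every other group has no replicate among the libraries used. The merged counts also hold 6 columns of other samples, which match no sample described here and were left out. The comparisons asked what bleomycin changed in skin and what each compound changed in bleomycin-exposed skin.

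Complexes I to IV form the respiratory chain of the inner mitochondrial membrane. Electrons from NADH and succinate pass along it to oxygen, complexes I, III and IV pump protons, and complex V uses the resulting gradient to make ATP. Most subunits are encoded in the nucleus and imported, while a core set of complexes I, III, IV and V is encoded in the mitochondrial genome. In skin, tissues rich in mitochondria include the muscle layer beneath the dermis, brown fat and growing hair follicles, whereas the epidermis makes much of its ATP by glycolysis.

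Promoters are shown because NRF1, ETS factors such as GABPA, and YY1 are known regulators of respiratory genes. RefSeq promoter windows (GRCm38.p6, 250 bases before to 50 after the start) were found for 67 of the 84 genes. Exact matches on either strand were counted for GCGCANGCG (NRF1), CCGGAAG (ETS) and AAGATGGCG (YY1), which do not contain each other. The NRF1 letters were in the windows of 20 of the 67 genes (29.9%), against 7.03% of all 27025 genes in the promoter table and 12.6% of those tested for expression. The ETS letters were in 17 (25.4%), against 9.93% of all and 16.7% of tested genes, and the YY1 letters in 7 (10.45%), against 1.64% of all and 2.84% of tested genes. By complex, NRF1 matches stood in 8 of 32 windows of complex I, 2 of 3 of complex II, 2 of 5 of complex III, 1 of 12 of complex IV and 7 of 15 of complex V. Of the 67 genes, 62 were tested for expression. Among those 62, 18 (29.0%) held the NRF1 letters, 15 (24.2%) the ETS letters and 7 (11.3%) the YY1 letters. A match is a description of letters and not a bound site. Matches were not compared with the levels below, and their part in those levels was not tested.

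The 200 bases just before the start site show where the NRF1 letters stand in 1 gene each of complexes I, II, IV and V. Each is the tested gene of highest level per kilobase in its complex with 1 window and with the NRF1 letters in those bases. No complex III gene met this rule, and the complex I gene, Ndufb4, ranked only 23 by level in its complex. The stretches of the 4 genes are given 5′ to 3′ on the gene's strand, with the letters of any of the 3 motifs in capitals. All 4 lie on the minus strand: Ndufb4 (complex I) at chr16:37654369-37654568, Sdha (complex II) at chr13:74350241-74350440, Cox6a1 (complex IV) at chr5:115348959-115349158 and Atp5k (complex V) at chr5:108434400-108434599. In Cox6a1 and Atp5k a capital stretch matches NRF1 on both strands, and the last capital stretch of Cox6a1 is the ETS motif on the other strand.
Ndufb4: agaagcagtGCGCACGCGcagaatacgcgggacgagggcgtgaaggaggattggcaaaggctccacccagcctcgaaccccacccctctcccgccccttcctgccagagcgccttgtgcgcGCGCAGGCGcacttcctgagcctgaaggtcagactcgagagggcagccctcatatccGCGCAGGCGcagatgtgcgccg
Sdha: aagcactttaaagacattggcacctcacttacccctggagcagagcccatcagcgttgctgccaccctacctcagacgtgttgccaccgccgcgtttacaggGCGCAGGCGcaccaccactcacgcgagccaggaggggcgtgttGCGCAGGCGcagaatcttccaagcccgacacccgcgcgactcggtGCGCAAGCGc
Cox6a1: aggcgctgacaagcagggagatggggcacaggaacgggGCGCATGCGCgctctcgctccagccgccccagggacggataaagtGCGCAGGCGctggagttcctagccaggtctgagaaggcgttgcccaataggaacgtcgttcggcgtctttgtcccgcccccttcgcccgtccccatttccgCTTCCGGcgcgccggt
Atp5k: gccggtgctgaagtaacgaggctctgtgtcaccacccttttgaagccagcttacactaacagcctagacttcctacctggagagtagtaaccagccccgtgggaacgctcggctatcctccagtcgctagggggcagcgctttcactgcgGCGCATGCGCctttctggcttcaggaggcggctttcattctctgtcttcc

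The libraries held 14291592 to 19837682 counts. Of these, the 84 genes took 0.566% in control (95% Wilson interval 0.562 to 0.569) and 0.422 to 0.461% in the other 5 libraries (intervals from 0.419 to 0.464), where intervals cover counting error only. Mitochondrial ribosomal RNA took 17.3 to 26.5% of the counts (intervals from 17.2 to 26.5), most in control and least in the first ajulemic acid library. Levels below are in CPM, read counts scaled to library totals with TMM factors. Keratinocyte markers, 15 genes such as Krt5 and Krt14, summed to 12070 to 19063 CPM, so the labelled tissue was seen in every library. The libraries differed widely in other tissue markers: 28 skeletal muscle genes summed to 10686 CPM in control, 29835 with bleomycin alone, 29718 with added EHP-101 and 20159, 28324 and 12723 with added ajulemic acid. A set of 24 genes of growing hair follicles summed to 15497, 1235, 12466 and 13658, 718.0 and 31629 CPM in the same order, and 20 white adipocyte genes to 11578, 5983, 5160 and 4824, 7149 and 3316. Hepatocyte genes, 20 in all, were present although the samples are labelled skin, and summed to 1705, 1441, 1678 and 660.3, 666.0 and 454.5 CPM. These sums include Hp, the acute phase protein haptoglobin, at 90.5, 294.9, 638.0 and 430.5, 366.4 and 309.3 CPM. The median hepatocyte gene stood at 68.9% of control with bleomycin alone, 53.1% with added EHP-101 and 2.01, 2.36 and 0.760% in the 3 libraries with ajulemic acid, where 2 of the 20 were at 0 in the first and 3 in the third.

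The control library had more RNA of nearly every subunit gene than any bleomycin-exposed library, whether or not a compound was given. Among the 77 genes with enough counts to test, 71 were higher in control than in all 5 exposed libraries, against 17.9% of all 17377 genes tested. Cox6a2 and Atp5g3 (2 genes) were lower in control than in all 5, against 22.0% of all genes. The 4 that did neither were Ndufa6, Cox6b2, Ndufa4l2 and Atp5g1. The split was 34 of 35 for complex I, 3 of 3 for complex II, 7 of 7 for complex III, 12 of 15 for complex IV and 15 of 17 for complex V. Relative to control, the median gene stood at 73.0% with bleomycin alone, 72.9% with added EHP-101 and 74.4, 76.7 and 78.05% in the 3 libraries with ajulemic acid. With library totals not scaled the count was 65. It was 71 without any one of the ajulemic acid libraries, but leaving out an exposed library makes the condition easier to meet. That result is therefore no check on the count, and the single control library could not be varied. With a single control library, the difference between mice and the difference between conditions cannot be told apart, and in bulk skin fewer cells of a type and less RNA per cell cannot be told apart.

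**Figure D1:**
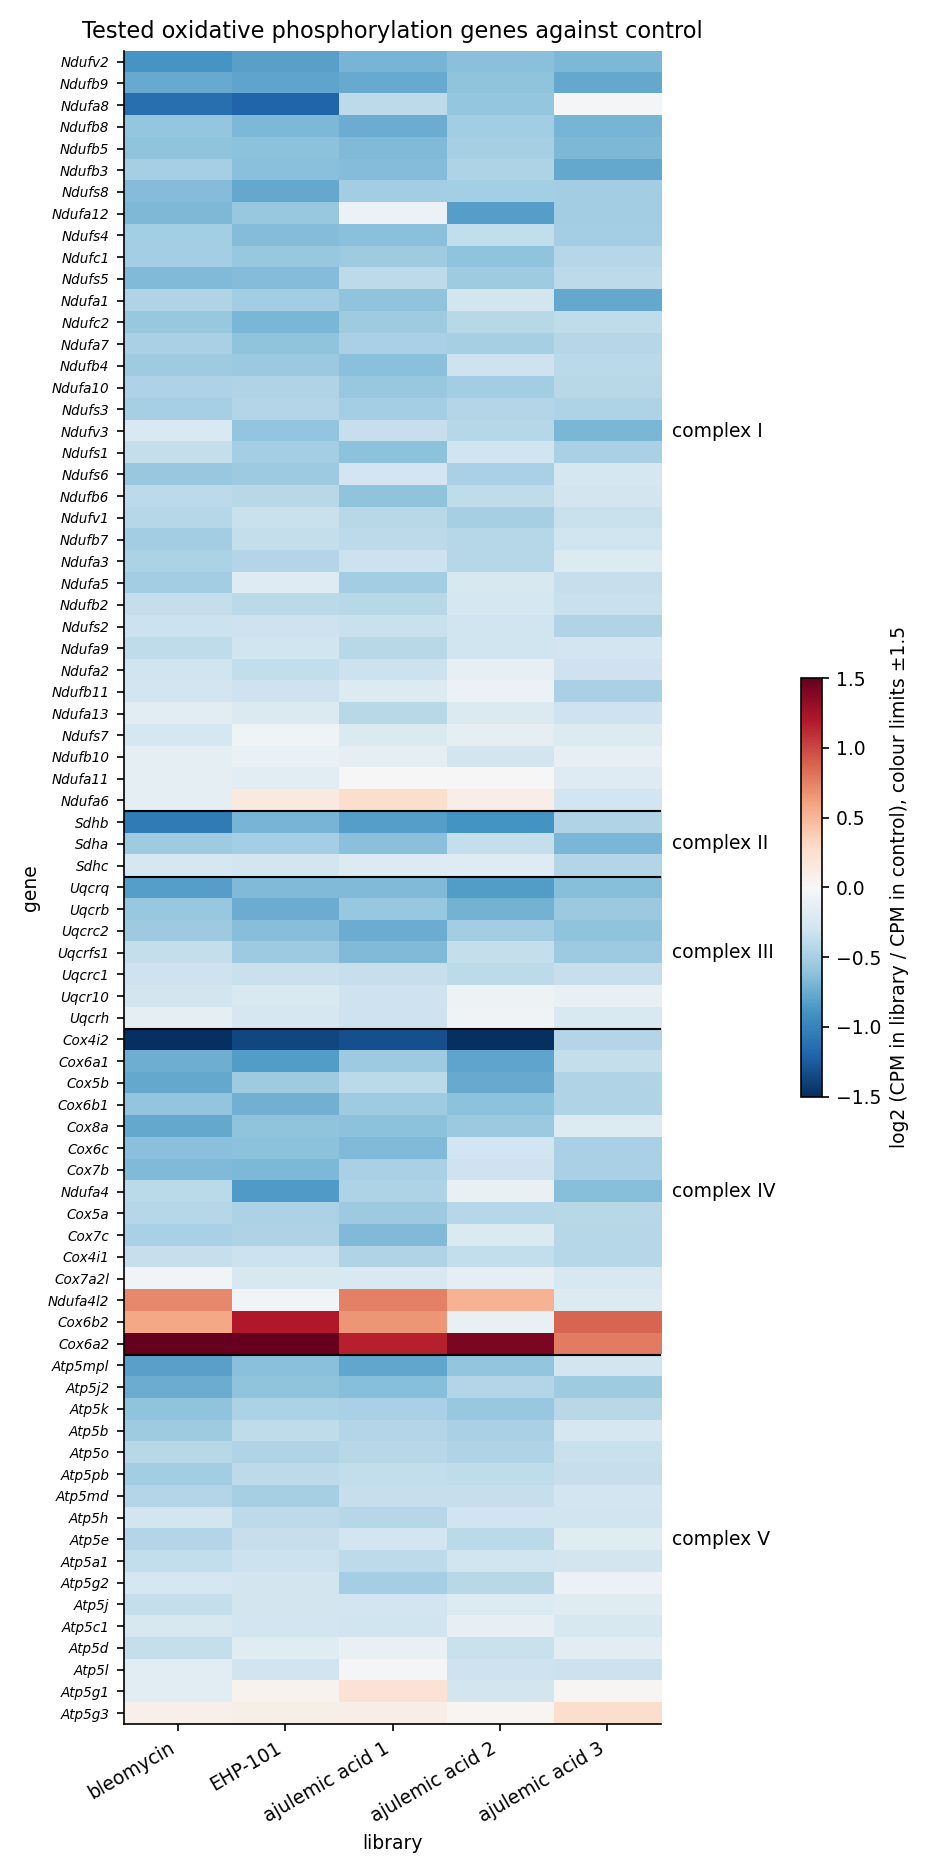
Each row is a tested subunit gene, ordered within its complex by its mean, and each column a bleomycin-exposed library; colour is the log2 ratio of its CPM to the control library, with colours limited at 1.5 either way. Blue, below control, fills nearly all of the 77 rows, and the red rows are Cox6a2, Cox6b2 and Ndufa4l2 of complex IV with pale red in Atp5g3, Atp5g1 and Ndufa6.

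The other 7 of the 84 genes had 0 to 27 counts over all 6 libraries and were not tested: Sdhd, the membrane anchor of complex II, with 1 count, Uqcr11 with 0, Cox7a2 with 27, and Ndufb4b, Ndufb4c, Cox7b2 and Cox8c with 0 to 7. For Sdhd, Uqcr11 and Cox7a2 these are subunits that every respiring cell uses, so a count near 0 does not show a missing transcript. In the deposited exon coordinates, 95.4% of the exon bases of Uqcr11, 90.8% of Sdhd and 48.9% of Cox7a2 lay under an exon of another listed gene on the opposite strand, and those partner genes also had only 2, 4 and 4 counts. Overlaps of 80.2% in Ndufa8, 60.9% in Ndufa6, 55.1% in Ndufa12 and 50.7% in Atp5d came with 142, 171, 353 and 1779 counts. No source used here states the strand setting of the counting, so the levels of these 7 genes are uncertain. Leaving out genes with an overlap of 40% or more left 68 of 73 highest in control.

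**Figure D2:**
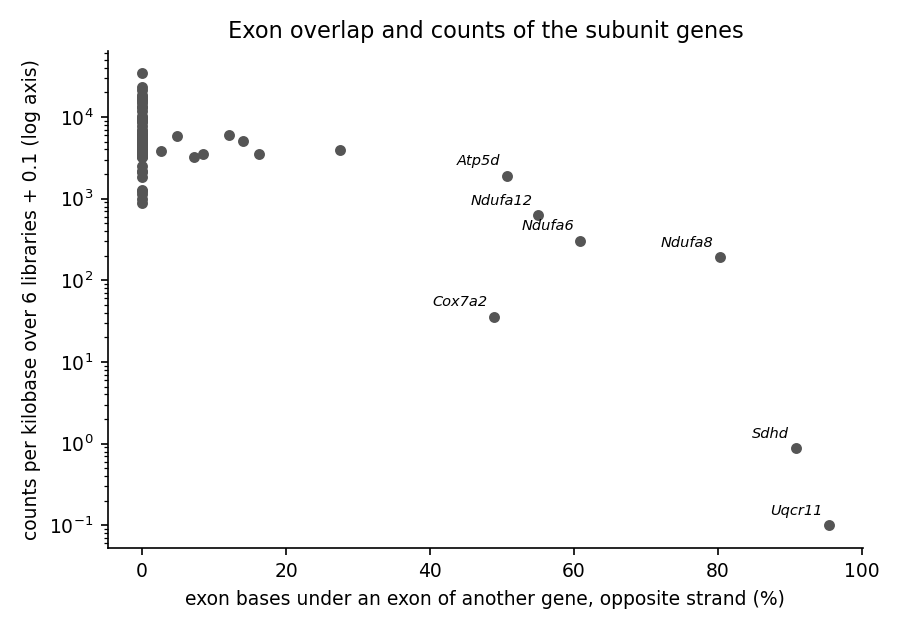
Each point is a subunit gene outside the restricted isoforms, with the percent of its exon bases under an exon of another gene on the opposite strand on the x axis, and its counts per kilobase summed over 6 libraries plus 0.1 on a log axis. The 7 named genes, with overlaps from 48.9 to 95.4%, are the ones at 40% or more.

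Bleomycin against control, 1 library each, gave a lower level for 73 of the 77 genes, where 50.5% of all genes tested were lower. The median log2 fold change was -0.45 (quartiles -0.57 and -0.29), against -0.01 for all genes. By complex the medians were -0.49 for I, -0.53 for II, -0.36 for III, -0.49 for IV and -0.37 for V. Of the 77, 19 were at least 1.5-fold lower (14.1% of all genes) and 2 at least 1.5-fold higher (15.0%). edgeR's quasi-likelihood test called none of the 77 at an adjusted p of 0.05, with a smallest adjusted p of 0.532, and 0 of the 17377 genes. At an unadjusted p under 0.05 there were 17 lower (2.1% of all genes) and 1 higher (4.7%), and DESeq2 called 1 of the 77, Cox6a2.

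**Figure D3:**
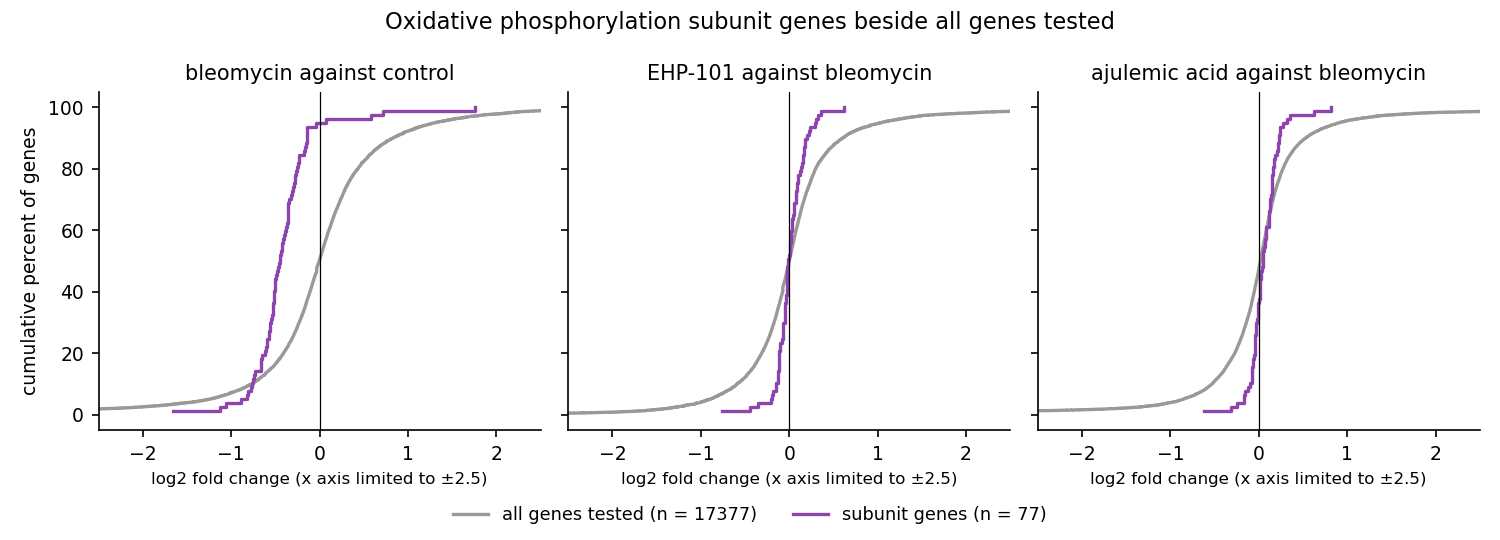
Cumulative percent of genes (y) with a log2 fold change up to the value on the x axis, for all 17377 genes tested (grey) and the 77 subunit genes (purple). For bleomycin against control the purple curve lies left of 0 with a median of -0.45, and in the other 2 panels it crosses near 0, with medians of -0.01 and 0.05.

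Complex I takes electrons from NADH. Its most abundant transcripts per kilobase over the 6 libraries were Ndufb9, Ndufb8 and Ndufa3, all accessory subunits. Ndufb9 (chromosome 15, mm10 58933810 to 58939489, plus strand) was at 101.1 CPM in control, 59.9 with bleomycin alone, 58.3 with added EHP-101 and 59.9, 66.5 and 59.3 with added ajulemic acid. The 5 exposed libraries lay close together, all below control. Its log2 fold change was -0.75 ± 0.20 (SE) in bleomycin against control and -0.71 ± 0.16 in ajulemic acid against control, with edgeR adjusted p of 0.617 and 0.309. Ndufb8 was at 86.8 CPM in control skin, 58.3 and 54.2 with bleomycin alone and with added EHP-101, and 52.0, 60.6 and 53.7 with ajulemic acid. Ndufa3 was at 39.7 CPM in control skin, 28.6 and 29.2 with bleomycin alone and with added EHP-101, and 31.6, 29.4 and 34.4 with ajulemic acid. Ndufv2, a core subunit of the NADH-binding end, stood at 85.4 CPM in control, 46.1 with bleomycin alone, 48.6 with added EHP-101 and 52.5, 55.3 and 53.4 with added ajulemic acid. Neither it nor any other complex I gene passed adjustment, and its log2 fold change in bleomycin was -0.89 ± 0.19. Ndufa8 had a lower ratio still (-1.13 ± 0.56 in bleomycin), but its level was 0.854 to 1.97 CPM and its exons are among the overlapped ones. At the other end, Ndufa11, Ndufb10 and Ndufa6 had mean ratios nearest to control, with Ndufb10 at 39.0 CPM in control and 32.1 to 36.4 in the exposed libraries.

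Complex II is also the succinate dehydrogenase of the tricarboxylic acid cycle and is wholly encoded in the nucleus. Sdha, its flavoprotein, was at 217.9 CPM in control, 150.5 with bleomycin alone, 152.9 with added EHP-101 and 141.4, 170.6 and 135.7 with added ajulemic acid. Sdhb, the iron-sulfur subunit, was at 103.7, 49.7, 63.8 and 58.7, 55.8 and 75.9 CPM in that order. For both, the control library stood alone on top, and the bleomycin library lay within or below the ajulemic acid range. The log2 fold change of Sdhb in bleomycin against control was -1.06 ± 0.29 (edgeR adjusted p = 0.625), the lowest of the 77 after Cox4i2 and Ndufa8. Sdhc, a membrane anchor, was at 73.2 CPM in control and 54.0 to 64.1 in the others.

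Complex III hands electrons from ubiquinol to cytochrome c. Uqcrh, its hinge protein, was at 100.8 CPM in control, 91.1 with bleomycin alone, 84.5 with added EHP-101 and 81.3, 97.5 and 85.8 with added ajulemic acid, so the gap to control was small. Uqcr10 was at 43.2 CPM in control and 34.9 to 40.9 in the exposed libraries. Uqcrc1, a core protein, was at 159.7 CPM in control skin, 128.4 and 126.4 with bleomycin alone and with added EHP-101, and 125.2, 121.1 and 125.2 with ajulemic acid. Uqcrq, a small subunit next to cytochrome b, was at 33.0 CPM in control and 18.5 to 21.3 CPM in the others, without passing adjustment (edgeR adjusted p = 0.402 in ajulemic acid against control).

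Complex IV reduces oxygen. Cox4i1, the common isoform of its regulatory subunit 4, was the most abundant per kilobase of its 18 genes, at 183.6 CPM in control, 144.2 with bleomycin alone, 146.9 with added EHP-101 and 134.7, 142.3 and 136.2 with added ajulemic acid. Cox6b1 was at 130.4 CPM in control skin, 86.5 and 79.2 with bleomycin alone and with added EHP-101, and 90.2, 85.1 and 95.4 with ajulemic acid. Ndufa4, first assigned to complex I and now placed in complex IV, was at 114.8, 86.9, 63.8 and 83.4, 106.6 and 73.6 CPM. Its second ajulemic acid library came close to control, and EHP-101 was lowest. Cox7a2l, a gene linked to supercomplexes of complexes III and IV, was at 50.7 CPM in control and 42.8 to 49.2 in the others. Of the other common subunits, Cox7b was at 70.7 CPM in control and 44.3 to 57.0 in the exposed libraries, and Cox8a at 44.9 in control and 26.4 to 38.9.

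Cox6a2 was an exception in the opposite direction. It encodes the heart and skeletal muscle isoform of subunit 6a and lies on chromosome 7 (mm10 128205435 to 128206366, minus strand). It was at 8.87 CPM in control, 30.0 with bleomycin alone, 32.3 with added EHP-101 and 19.8, 23.7 and 15.3 with added ajulemic acid (19.6 ± 4.21, SD, n = 3). All exposed libraries were above control, and bleomycin and EHP-101 were above all 3 ajulemic acid libraries. The log2 fold change was 1.76 ± 0.37 with bleomycin alone, 1.86 ± 0.37 with added EHP-101 and 1.14 ± 0.32 with added ajulemic acid, each against the same control library. edgeR gave adjusted p of 0.532, 0.638 and 0.447, which do not pass. DESeq2 gave 0.0422 and 0.0301 for the first 2, and edgeR without the third ajulemic acid library gave 0.0391, 0.0381 and 0.0488, so the call depended on the tool and on 1 library. Its ubiquitous partner Cox6a1 was highest in control like most: 102.6 CPM in control, 61.9 with bleomycin alone, 57.3 with added EHP-101 and 70.6, 59.2 and 80.05 with added ajulemic acid. Per base of exon, Cox6a2 RNA was 6.99% of Cox6a1 RNA in control, 39.2% with bleomycin alone, 45.6% with added EHP-101 and 22.7, 32.4 and 15.4% with added ajulemic acid. The 28 skeletal muscle genes, which do not include Cox6a2, had median levels of 286%, 257% and 182, 255 and 132% of control in the same libraries, with 23 of 28 lowest in control and none of them at 0. The part of muscle content in the Cox6a2 values was not tested.

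The other isoforms did not pass edgeR's test, and Cox4i2 and Cox6b2 were at no more than 2.56 CPM in any library. Cox4i2, a subunit 4 isoform known for lung and for low oxygen, had 31 counts in control, 10 with bleomycin alone, 13 with added EHP-101 and 12, 11 and 30 with added ajulemic acid, or 2.04 CPM in control and 0.631 CPM in the lowest library. Its log2 fold change of -1.65 ± 0.80 in bleomycin was the lowest of the 77, on few counts. In CPM the third ajulemic acid library stood at 73.5% of control for Cox4i2, the highest of the exposed libraries. Ndufa4l2, a hypoxia-induced relative of Ndufa4, was at 18.2 CPM in control, 30.0 with bleomycin alone, 17.8 with added EHP-101 and 30.6, 26.1 and 15.8 with added ajulemic acid, so the groups overlapped. Cox6b2, the testis isoform, had 17 counts in control and 18 to 42 in the others. In CPM it was at 1.12 in control and 1.03 to 2.56 in the others, lowest in the second ajulemic acid library. Cox7a1 and Cox8b lie outside the gene set but are the subunit 7a and 8 isoforms of muscle and brown fat. They were highest in control, at 21.0 CPM against 4.39 to 10.5 for Cox7a1, and at 37.3 CPM against 7.83 to 17.7 for Cox8b. Ucp1, the uncoupling protein that defines brown fat, was at 95.1 CPM in control, 0.0642 with bleomycin alone, 0.244 with added EHP-101 and 0.0682, 17.1 and 0.0499 with added ajulemic acid. The 12 brown adipocyte genes, which include Ucp1, Cox7a1 and Cox8b, summed to 322.2 CPM in control and 132.0 to 219.9 CPM in the exposed libraries. In bleomycin against control 9 of the 12 were lower and 3 higher, while 7 were highest in control and 1 was lowest there. Their part in the subunit gene values was not tested.

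**Figure D4:**
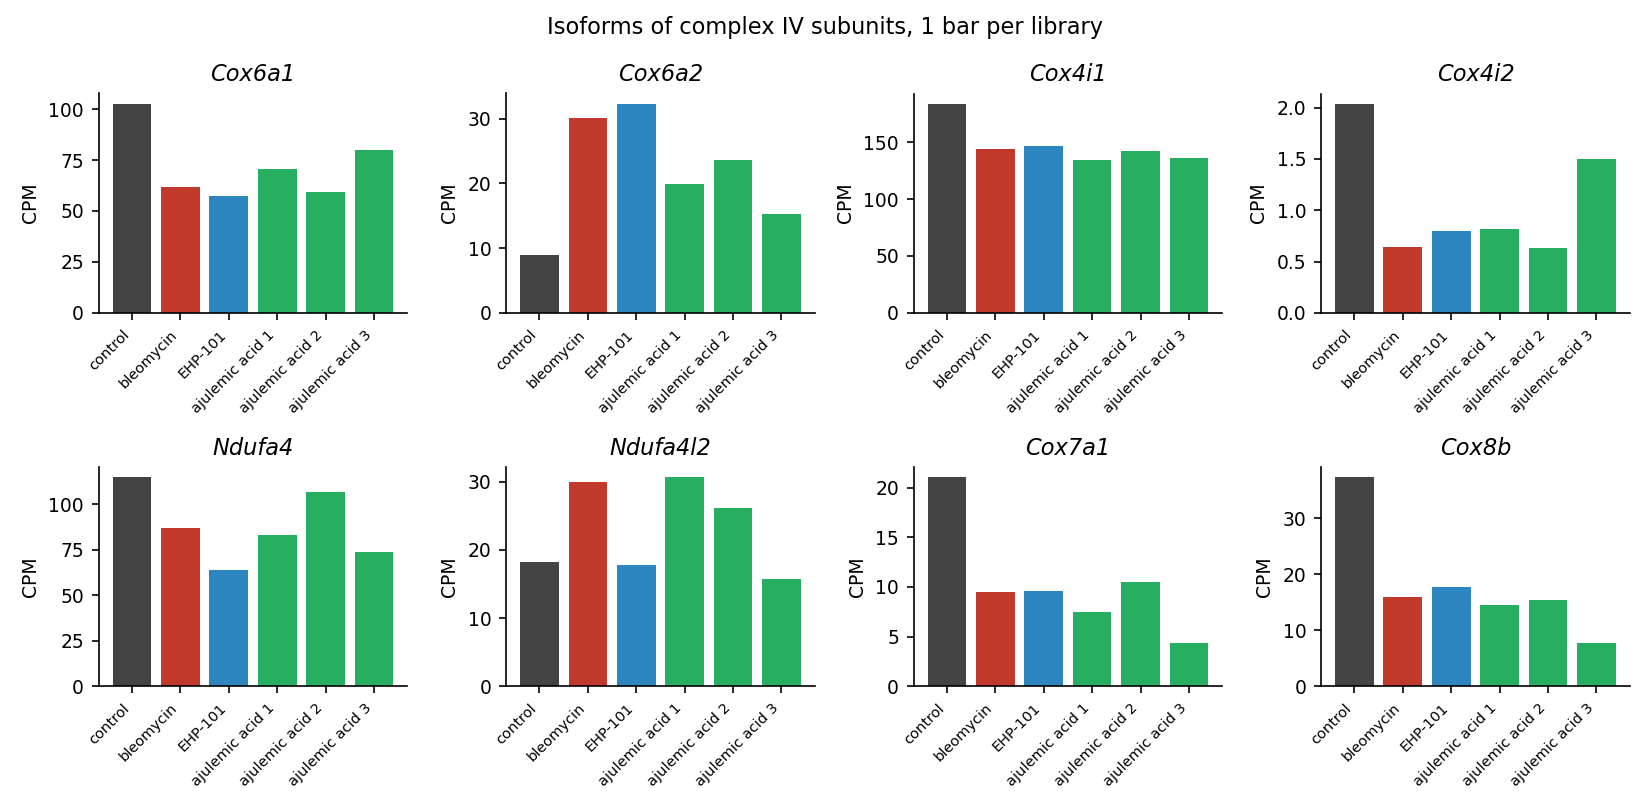
CPM (y, from 0) of common and tissue-restricted complex IV isoforms in each library, 1 bar per library with no error bar, since each bar is 1 value. Cox6a2 is lowest in control (8.87 CPM) while Cox6a1, Cox4i1, Ndufa4, Cox7a1 and Cox8b are highest there.

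Complex V makes the ATP. Atp5b, the catalytic beta subunit (chromosome 10, mm10 128083307 to 128090388, plus strand), was the most abundant of all 84 genes per kilobase, at 818.5 CPM in control, 566.4 with bleomycin alone, 631.1 with added EHP-101 and 603.8, 582.3 and 684.9 with added ajulemic acid. Atp5a1, the alpha subunit, was at 680.8, 526.9, 546.0 and 519.9, 551.6 and 561.0 CPM. Atp5k, the small e subunit of the membrane part, was at 58.1, 38.2, 41.7 and 41.5, 39.2 and 43.6 CPM. In all 3 the exposed libraries lay together below control, and the log2 fold change of Atp5b in bleomycin was -0.53 ± 0.24 (edgeR adjusted p = 0.769). The c-ring subunit is encoded by 3 genes with the same mature protein. Atp5g3, the major of these here, was at 84.4 CPM in control and 88.6, 89.9 and 90.5, 86.4 and 101.6 in the others, a difference of 0.07 ± 0.21 on the log2 scale in bleomycin. Atp5g1 was at 10.05 CPM in control and 8.31 to 11.7 in the exposed libraries, and Atp5g2 was at 7.56 and 5.32 to 7.08 CPM. Per base of exon, Atp5g1 was 7.53 to 10.1% and Atp5g2 6.17 to 9.40% of Atp5g3. Transcripts of other genes also hold 11.1% of the 50-base windows of Atp5g1 and 38.3% of those of Atp5g2, against 0% for Atp5g3. Counts of Atp5g1 and Atp5g2 may therefore be split, and these ratios are uncertain.

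Other genes of the pathway were read from lists, which share Cpt1b and Ppargc1a. The 13 tricarboxylic acid cycle genes tested were all lower in bleomycin than in control (median log2 fold change -0.53), and 12 of 13 were highest in control. Among 16 fatty acid oxidation genes all 16 were lower in bleomycin (median -0.80) and 14 were highest in control. Hadha, the mitochondrial trifunctional protein alpha subunit, was at 255.8 CPM in control, 174.2 with bleomycin alone, 169.6 with added EHP-101 and 193.6, 181.0 and 183.8 with added ajulemic acid. Cs, citrate synthase, was at 339.8, 305.4, 288.2 and 327.2, 298.5 and 313.3 CPM. Of 49 assembly factors, 42 were lower in bleomycin (median -0.28), with 31 highest in control, and so were 73 of 77 mitochondrial ribosomal protein genes (median -0.32), with 43 highest in control. In the list of electron carrier, ubiquinone and exchanger genes, 16 of 21 were lower (median -0.32). Slc25a4, the muscle-rich ADP/ATP carrier, was an exception at 154.0 CPM in control, 236.3 with bleomycin alone, 222.3 with added EHP-101 and 182.4, 239.9 and 145.9 with added ajulemic acid. None of these lists' genes passed edgeR's test in any comparison.

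As a group, messenger RNAs of the mitochondrial genome did not share the pattern, although mt-Co1, the most abundant of them, was highest in control. Of the 10 tested, 3 were lower in bleomycin than in control (median 0.11), 2 were highest in control and 1 was lowest there. The 3 lower ones were mt-Co1, mt-Co2 and mt-Atp6. Counts of several of these genes are uncertain: mt-Co2 and mt-Atp6 were at no more than 3.75 CPM and mt-Co3 at no more than 14.3 CPM, and mt-Nd3, mt-Nd4l and mt-Atp8 had 0 to 10 counts in each library and were not tested, although every respiring cell uses these transcripts. mt-Co1, the catalytic subunit of complex IV, was at 5188 CPM in control, 3275 with bleomycin alone, 2984 with added EHP-101 and 2682, 4193 and 2712 with added ajulemic acid. mt-Nd5 of complex I was at 596.6, 1138, 1106 and 569.6, 1369 and 892.9 CPM. The summed level of the mitochondrial genome's messenger RNAs ran from 6828 to 13962 CPM within the ajulemic acid group alone. In the first library of that group 9 of the 10 tested were below control, with a median of 78.1% of control. In the second library 8 were above control, with a median of 143%. Among the 20 regulators of mitochondrial biogenesis, 10 were lower and 10 higher in bleomycin (median -0.01). Ppargc1a, the coactivator PGC-1 alpha, was at 9.66 CPM in control, 10.9 with bleomycin alone, 14.8 with added EHP-101 and 9.55, 8.20 and 7.43 with added ajulemic acid. Tfam, the mitochondrial transcription factor, was at 29.2, 23.5, 24.7 and 22.1, 26.7 and 27.9 CPM. Nrf1 was at 31.1 CPM in control and 30.4 to 38.6 in the exposed libraries, and Gabpa at 67.8 and 63.8 to 72.0 CPM. Of 16 glycolytic genes, 12 were higher in bleomycin (median 0.36), and Pkm was at 246.6 CPM in control, 354.1 with bleomycin alone, 280.6 with added EHP-101 and 299.7, 280.0 and 260.4 with added ajulemic acid.

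Levels of short genes and of markers of other cell types also differed between control and the exposed libraries. Exons sum to at most 1000 bases in 61 of the 84 subunit genes, and of 528 protein-coding genes of up to 1000 exon bases at 10 CPM or more, 176 (33.3%) were highest in control, against 1372 (14.5%) of 9443 longer ones. Both lists include the subunit genes that meet their limits, so part of each share comes from the subunit genes themselves. The median short gene stood at 87.5% of control with bleomycin alone and 83.2% with added EHP-101. With added ajulemic acid it stood at 93.5, 89.5 and 100.2%. White adipocyte genes, 20 in number, were all lower in bleomycin than in control (median -1.03), with 16 highest in control. None was at 0 in any library. Hepatocyte genes were lower in 17 of 20 (median -0.54). The 24 hair follicle genes had a median log2 fold change of -3.92 in bleomycin. Their summed level was highest in the third ajulemic acid library, where the subunit genes stood at 78.05% of control, and lowest in the second, where the subunit genes stood at 76.7%. For muscle, fat, hepatocyte and hair follicle genes and for gene length, the part in the subunit gene values was not tested.

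**Figure D5:**
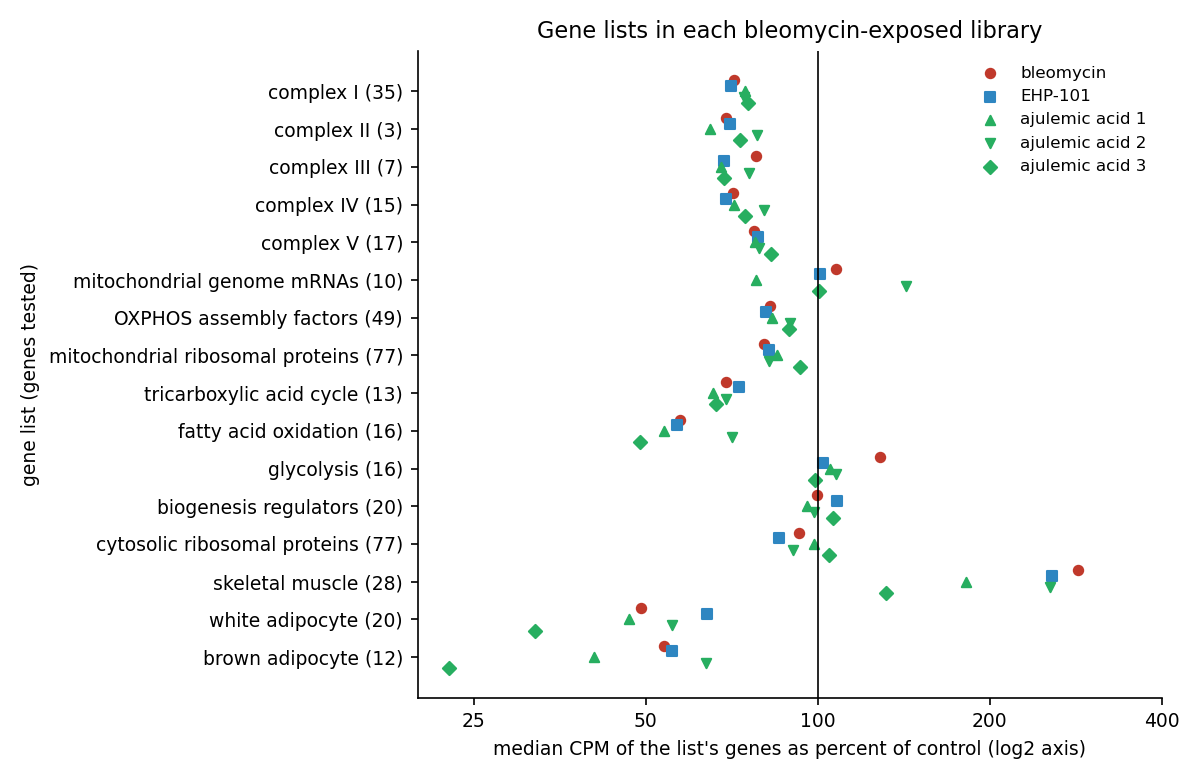
Median level of each gene list as a percent of the control library (x, log2 axis), with 1 point per bleomycin-exposed library and the number of genes tested in brackets. The 5 complexes sit between 64.9 and 82.7% in all 5 libraries, while mitochondrial genome mRNAs run from 78.1 to 143% and skeletal muscle genes from 132 to 286%.

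EHP-101 against bleomycin, 1 library each, gave subunit gene levels spread to both sides of 0. Of the 77, 39 were lower (50.0% of all genes) with a median log2 fold change of -0.01, against 0.00 for all genes; with unscaled totals 19 were lower and the median was 0.07, a scaling that raised the median of all genes by 0.08. Relative to all genes the subunit genes were at -0.01 in both settings. Complex medians were -0.03 for I, 0.02 for II, -0.09 for III, 0.01 for IV and 0.08 for V. The lowest log2 fold changes were those of Ndufa4l2 (-0.75 ± 0.49), Ndufa4 (-0.45 ± 0.31) and Ndufv3 (-0.36 ± 0.26), and the highest those of Cox6b2 (0.62 ± 0.63), Sdhb (0.36 ± 0.29) and Ndufa5 (0.33 ± 0.25). edgeR called 0 of the 77, with 0 at an unadjusted p under 0.05 in either direction (0.575% of all genes higher, 1.32% lower), and DESeq2 also called none. The 95% interval of the difference for Atp5b ran from -0.47 to 0.78 and for Cox4i1 from -0.46 to 0.51 on the log2 scale. Those intervals include differences as large in size as the ones between bleomycin and control for the same genes. Skeletal muscle genes had a median of -0.06 and hair follicle genes of 3.41 in the same comparison.

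Ajulemic acid against bleomycin, 3 libraries against 1, gave a median of 0.05 for the subunit genes, against 0.02 for all genes, and 28 of 77 were lower (47.2% of all genes). The complexes' medians were 0.03 for I, -0.01 for II, -0.05 for III, 0.06 for IV and 0.12 for V. The bleomycin library lay within the range of the 3 ajulemic acid libraries for 47 of the 77 (52.5% of all genes), below it for 22 (22.9%) and above it for 8 (24.6%). Ndufa8 (0.82 ± 0.48), Cox4i2 (0.62 ± 0.70) and Sdhb (0.35 ± 0.24) had the highest log2 fold changes, and Cox6a2 (-0.62 ± 0.28), Ndufa4l2 (-0.31 ± 0.39) and Ndufv3 (-0.25 ± 0.21) the lowest. At least 1.5-fold higher were 2 genes (8.86% of all genes) and at least 1.5-fold lower 1 gene (8.66%). edgeR called none and had 0 of the 77 at an unadjusted p under 0.05 (0.622% of all genes higher, 3.21% lower), and DESeq2 called none. For Cox6a2 the 95% interval was -1.35 to 0.12, beside muscle genes that were lower in 28 of 28 (median -0.55). Hepatocyte genes had a median log2 fold change of -5.43 in the same comparison, and their part in the subunit gene values was not tested.

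Against control, both groups given a compound had most subunit genes at a lower level. These comparisons share the 1 control library with bleomycin against control, so they are not independent of it. In EHP-101 against control, 72 of 77 were lower (49.9% of all genes) with a median of -0.45, or -0.33 with unscaled totals, a scaling that raised the median of all genes by 0.13 and left the subunit genes 0.46 below it. At least 1.5-fold lower were 25 (10.3% of all genes), led by Cox4i2 (-1.35 ± 0.78), Ndufa8 (-1.20 ± 0.56) and Ndufa4 (-0.85 ± 0.31), and 2 at least 1.5-fold higher (10.5%), Cox6a2 and Cox6b2 (1.19 ± 0.65). In ajulemic acid against control, 72 of 77 were lower (45.1% of all genes) with a median of -0.41, against 0.04 for all genes. At least 1.5-fold lower were 10 (8.48% of all genes), led by Cox4i2 (-1.03 ± 0.59), Ndufb9 and Sdhb (-0.71 ± 0.22), and 1 at least 1.5-fold higher (9.88%). Neither comparison had a subunit gene past adjustment in edgeR, with smallest adjusted p of 0.638 and 0.309. At an unadjusted p under 0.05, EHP-101 had 15 lower (1.71% of all genes) and 1 higher (2.92%), and ajulemic acid 25 lower (4.1%) and 1 higher (3.02%). The 6 genes that edgeR called among all 17377 (0.0345%), all lower with ajulemic acid than in control, were not subunit genes. Of these 6, 3 were among the 20 hepatocyte genes.

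The compounds, ajulemic acid against EHP-101, were compared next. The median log2 fold change was 0.05, against 0.02 for all genes, with 25 of 77 lower (45.5% of all genes). With unscaled totals, which moved the median of all genes by -0.09 to -0.07, it was -0.05 with 53 lower. Relative to all genes it was 0.02 in both settings. A difference of at least 1.5-fold upward was seen in 1 gene (5.36% of all genes) and downward in 2 (6.19%). The EHP-101 library lay within the ajulemic acid range for 49 of 77 genes (61.9% of all genes), below it for 20 (19.8%) and above it for 8 (18.3%). Ndufa8 (0.89 ± 0.48), Ndufa4 (0.46 ± 0.26) and Ndufa4l2 (0.44 ± 0.41) were at the high end and Cox6a2 (-0.72 ± 0.28), Cox6b2 (-0.66 ± 0.49) and Ndufa5 (-0.18 ± 0.20) at the low end. None passed, with 0 at an unadjusted p under 0.05 in either direction (0.397% of all genes higher, 1.97% lower) in edgeR and none called by DESeq2. The 95% interval was -0.53 to 0.49 for Atp5b, -0.49 to 0.30 for Cox4i1 and -1.45 to 0.01 for Cox6a2, with muscle genes lower in 28 of 28 (median -0.51). The doses and times of the 2 compounds are not known here, so they may not match.

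Genes outside the set whose levels across the 6 libraries ran closest to the subunit genes' mean were Ddah2 and Tkt, each with a Pearson r of 0.997, then Letmd1 (0.995), Tmco1 (0.994) and Dus4l (0.994). Tkt encodes transketolase of the pentose phosphate pathway and Ddah2 a dimethylarginine dimethylaminohydrolase. The 6 points share 1 control library that stands apart from the other 5, so these values are a description only.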

How the data were processed

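Per the labels' protocols, 300 ng of total RNA from frozen skin was depleted of ribosomal RNA, made into stranded libraries and read as single ends of 50 bp. The submitters' processing notes name the build mm10 and 4 tools, which are featureCounts (1.6.1), HISAT2 (2.1.0), Trimmomatic (0.36) and DESeq2 (1.20.0). The authors deposited raw counts per gene by NCBI gene number, with the coordinates of exons; how strand was set and the handling of reads with several matches are not stated in any source used here. A merged table held the same counts for the 6 libraries (0 differing values), and 6 columns of other samples in it were left out. Symbols came from RefSeq GRCm38.p6 for 25275 of 27179 gene numbers.

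Counts were tested with edgeR 4.0.16 in R 4.3.3 (minimum count 10, 17377 genes, TMM, robust two-sided quasi-likelihood F-tests, Benjamini-Hochberg over all genes, threshold 0.05) in 1 fit of all 6 libraries with 2 residual degrees of freedom. The filter passes a gene that is high in a single library, so counts over tested genes describe only those. The code was tested on simulated data. SEs and 95% intervals come from the quasi-likelihood statistic. DESeq2 1.42.0, limma 3.58.1, other scalings and filters, and leaving out each ajulemic acid library were alternatives. Overlaps of exons were read from the deposited coordinates. Shares of 50-base windows that other transcripts also hold, from GENCODE M21, were under 10% in 62 of the 81 subunit genes with a transcript there, and counts of the others may be split.

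The subunit genes and all lists were chosen with earlier results of these data known. Named genes were the 3 of highest level per kilobase in each complex, all of complex II, the 3 highest and 3 lowest fold changes per comparison, isoforms with their partners, and genes past the threshold; Ndufv2, Uqcrq, Ndufa11, Ndufb10, Atp5g1, Atp5g2 and Atp5g3 were added after their values were seen.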

Additional observations from a re-analysis of the deposited data

How the results depend on the processing

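The median log2 fold changes of the subunit genes kept their direction against control under every scaling, filter, tool and left-out library run. Without scaling factors they were -0.40 for bleomycin, -0.33 for EHP-101 and -0.38 for ajulemic acid against control, 0.068 for EHP-101 against bleomycin, and -0.050 for ajulemic acid against EHP-101, where complex I was at -0.046. The medians of both these comparisons changed sign because this setting moved the median of all genes by 0.08 and -0.09; relative to all genes the subunit genes were at -0.01 and 0.02 with and without scaling. Without a filter, ajulemic acid against control was -0.38. With at least 1 CPM in 3 libraries, the median of complex IV in EHP-101 against bleomycin reversed to -0.0018 (0.011 before). Leaving out ajulemic acid libraries in turn gave medians of -0.52 to -0.45 for bleomycin against control, -0.010 to 0.022 for EHP-101 against bleomycin, -0.49 to -0.45 and -0.44 to -0.37 for EHP-101 and ajulemic acid against control, and 0.0090 to 0.061 for ajulemic acid against EHP-101, where complex I ran from -0.0021, a reversal without the second library, to 0.067. Medians over genes with under 10% shared windows or under 40% overlapped exons, both added after seeing the data, moved by less than the spread between the ajulemic acid libraries.

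Calls depended on the tool and on 1 library, and the cause was not tested. DESeq2 called 128 genes higher and 37 lower in bleomycin against control, 2 and 8 in EHP-101 against bleomycin, 4 and 99 in ajulemic acid against bleomycin, 93 and 27 in EHP-101 against control, 98 and 178 in ajulemic acid against control, and 1 and 63 in ajulemic acid against EHP-101, with 1 subunit gene, Cox6a2, called higher in bleomycin and in EHP-101 against control. limma and a minimum of 1 CPM in 3 libraries each called 0 lower in ajulemic acid against control, totals without scaling 1 higher and 34 lower, and no filter 27 higher and 126 lower, with 41 lower against bleomycin and 16 lower against EHP-101. Leaving out ajulemic acid libraries gave 0 to 139 genes higher and 0 to 38 lower in bleomycin against control, 0 to 7 and 0 to 90 in ajulemic acid against bleomycin, 0 to 72 and 0 to 19 in EHP-101 against control, 0 to 137 and 0 to 230 in ajulemic acid against control, 0 to 2 and 0 to 65 in ajulemic acid against EHP-101, and 0 to 1 subunit genes higher in each comparison with control, the highest counts being without the third library. The groups with 1 library are taken to have the same spread as the ajulemic acid group. No paired analysis was possible because the groups share at most 1 replicate number.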
